A study of Homo sapiens with 8 samples.

Results

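The ERBB receptor genes (EGFR, ERBB2, ERBB3 and ERBB4) and 5 genes of EGF-family ligands (AREG, EREG, HBEGF, TGFA and BTC) were followed through RNA-seq of 2 human bladder cancer cell lines. The 9 genes were taken by symbol from the deposited table of TPM, a length-scaled share of each library's transcripts that can be compared between genes, and each had 1 entry among 27475 human gene entries. The rule that picks them uses no measured value, but earlier results of these data were known when they were chosen. The study looked into a possible role of PAI-1 in the nucleus. It also used tumour staining, sequencing of DNA pulled down with PAI-1 and mass spectrometry, none of which is examined here. Its RNA-seq asked which genes respond to the siPAI-1 pool. Cells of UM-UC-3 and RT112 were transfected for 72 h with 100 pmol of siRNA, either 3 pooled sequences directed at PAI-1 (siPAI-1, "PAI-1 knockdown" in the labels) or a scrambled control (Scr, "WT" in the labels), and each of the 4 groups has 2 libraries. The lines were kept in RPMI 1640 or DMEM without a statement of which line had which medium, so line and medium cannot be told apart. The study describes the knockdown as independent replicate experiments, more of them than the 2 libraries a group has here, and nothing in the labels ties a library to an experiment or culture. The p-values therefore measure the spread between these libraries, which may be technical.

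The ERBB receptors are cell surface tyrosine kinases that signal in pairs after a ligand has bound. EGFR binds AREG, EREG, HBEGF, TGFA, BTC, EGF and EPGN, while ERBB3 and ERBB4 bind neuregulins (NRG genes), ERBB2 has no ligand of its own and is the preferred partner of the others, and ERBB3 has little kinase activity and signals through its partner. The ligands are made as membrane-anchored precursors that ADAM proteases cut loose, and in bladder epithelium the pathway is known for driving regeneration and, in cancer, growth.

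The libraries held an estimated 29300000 to 34200000 reads. RT112 carried the epithelial markers (summed 10770 to 12250 TPM over 6 genes, against 218.0 to 237.1 in UM-UC-3), the luminal urothelial markers (885.2 to 999.1 against 7.23 to 7.87 TPM over 7 genes) and the basal markers (773.6 to 1186 against 1.19 to 2.74 TPM over 4 genes). The luminal and basal markers were thus near absent in UM-UC-3 apart from PPARG (4.53 to 6.05 TPM). Most of the luminal sum in RT112 was UPK1B (580.3 to 644.3 TPM). UPK1A was low in both lines (0.14 to 0.38 TPM in UM-UC-3, 0.36 to 1.96 TPM in RT112), and UPK3A was listed at 0 in all libraries but 1. Of 4 mesenchymal markers (summed 2976 to 3260 TPM in UM-UC-3 and 72.4 to 147.2 TPM in RT112), VIM (at least 2852 against at most 8.09 TPM) and ZEB1 (at least 43.1 against at most 0.26 TPM) were higher in UM-UC-3, whereas FN1 and CDH2 were higher in RT112 with Scr. Summed markers reached at most 0.50 TPM for leukocytes, 2.35 TPM for endothelium and 25.1 TPM for fibroblasts. RT112 siPAI-1 replicate 1 stood apart from its partner in several markers: KRT5 was at 592.9 against 800.3 TPM, FN1 at 58.25 against 108.4 TPM and CDH2 at 7.65 against 17.9 TPM.

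EGFR, ERBB2 and ERBB3 were higher in RT112 than in UM-UC-3, and ERBB4 was lower. In UM-UC-3, EGFR had 36.0 and 35.1 TPM under Scr and 43.4 and 41.95 TPM under siPAI-1, and its RT112 libraries, in the same order, had 72.3, 71.4, 49.45 and 71.3 TPM. All 4 RT112 libraries were above all 4 UM-UC-3 libraries, with RT112 siPAI-1 replicate 1 closest to the other line. With Scr the ratio of the means was 2.02 and the difference on the log2(TPM + 0.1) scale was 1.01 ± 0.06 (SE, adjusted p = 0.000818). With siPAI-1 the difference was 0.48 ± 0.19 and did not pass (adjusted p = 0.116). Without RT112 siPAI-1 replicate 1 it was 0.74 (adjusted p = 0.029), without replicate 2 it was 0.21 (adjusted p = 0.097), and in a fit over all 8 libraries the adjusted p was 0.040. In bulk RNA, fewer expressing cells and less RNA per cell cannot be told apart, here and in the other values.

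ERBB2, the partner receptor, was at 15.3, 18.7, 14.15 and 13.8 TPM in UM-UC-3 (Scr, then siPAI-1) and at 46.1, 53.0, 53.9 and 50.6 TPM in RT112, a gap wider than the spread in either line. The log2 difference was 1.54 ± 0.14 with Scr (adjusted p = 0.0022) and 1.89 ± 0.08 with siPAI-1 (adjusted p = 0.000495). ERBB3, the neuregulin receptor, was at 3.23, 2.01, 2.42 and 1.28 TPM in UM-UC-3 and at 25.3, 28.5, 28.8 and 28.2 TPM in RT112. Its log2 difference of 3.35 ± 0.27 with Scr (adjusted p = 0.0016) was the largest of the receptors when 0.1 TPM was added. With siPAI-1 the ERBB3 difference was 3.94 ± 0.33 (adjusted p = 0.0018). ERBB4, the other neuregulin receptor, was low in UM-UC-3 (1.36, 1.03, 1.45 and 0.93 TPM) and lower in RT112 (0.09, 0.05, 0.17 and 0.14 TPM, an estimated 10.6 to 49.3 reads). The log2 difference was -2.93 ± 0.34 with Scr (adjusted p = 0.0040) and -2.31 ± 0.36 with siPAI-1 (adjusted p = 0.0087). Its size depends on the pseudocount: ERBB4 passed at -1.03 with Scr and -0.91 with siPAI-1 when 1 TPM was added, and at -3.95 and -2.83 when 0.01 TPM was. With Scr and 0.01 TPM added, the ERBB4 difference was larger in size than that of ERBB3 (3.39).

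**Figure D1:**
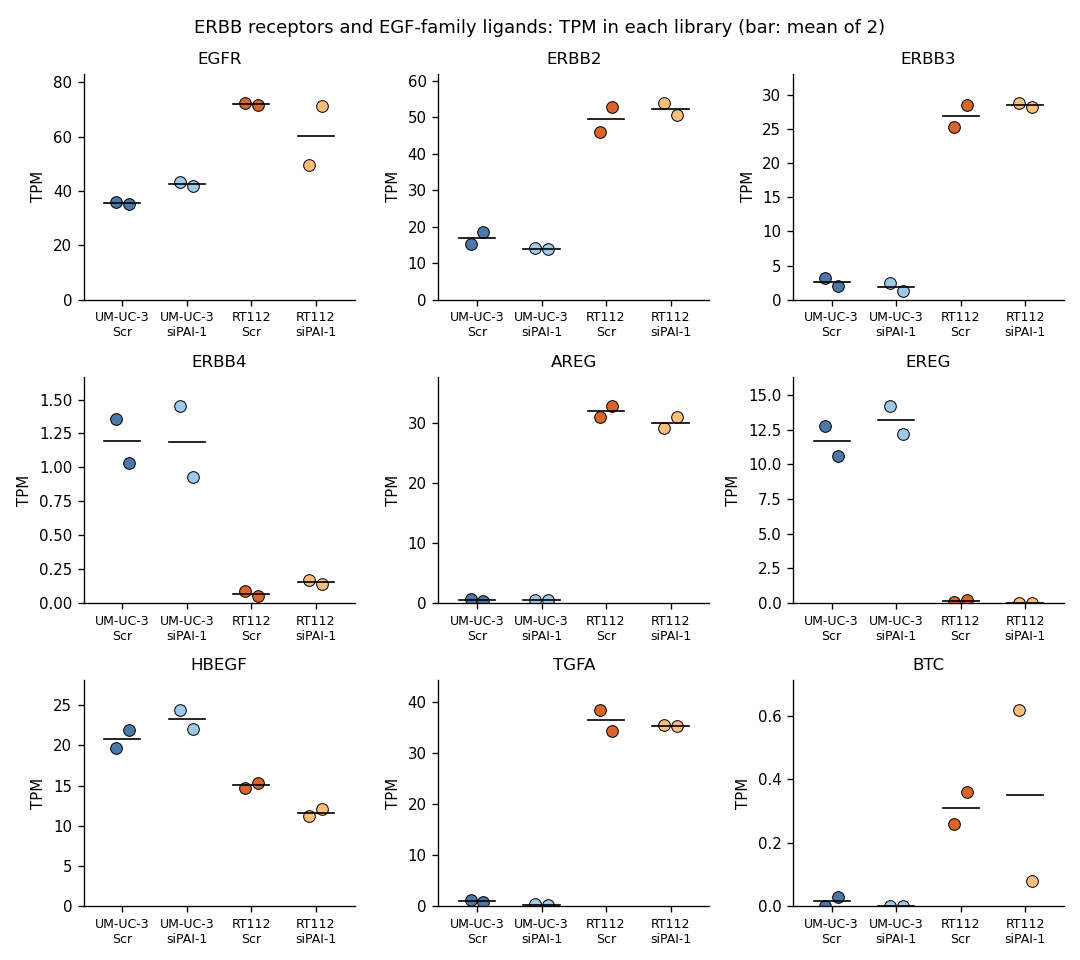
TPM (vertical axis, from 0) of the 9 genes in each of the 8 libraries, by cell line and siRNA; points are libraries and bars the mean of 2. AREG and TGFA sit near 0 in UM-UC-3 and between 29.1 and 38.5 TPM in RT112, EREG shows the reverse, and the 2 RT112 siPAI-1 points for EGFR lie at 49.45 and 71.3 TPM.

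Of the ligands, AREG and TGFA were high in RT112 and EREG was high in UM-UC-3. AREG (amphiregulin, a low-affinity ligand of EGFR) was at 0.60, 0.30, 0.43 and 0.57 TPM in UM-UC-3, an estimated 7.7 to 14.5 reads, and at 31.0, 32.7, 29.1 and 30.9 TPM in RT112. Every RT112 library was far above every UM-UC-3 library, with log2 differences of 5.92 ± 0.33 (Scr, adjusted p = 0.000766) and 5.66 ± 0.20 (siPAI-1, adjusted p = 0.000434). TGFA (transforming growth factor alpha, a high-affinity ligand of EGFR) was at 1.31, 0.77, 0.34 and 0.18 TPM in UM-UC-3 and at 38.5, 34.2, 35.4 and 35.2 TPM in RT112. Its log2 difference was 5.04 ± 0.28 with Scr (adjusted p = 0.000793) and 6.66 ± 0.29 with siPAI-1 (adjusted p = 0.000543). The sizes for AREG and TGFA depend on the pseudocount, as both were low in UM-UC-3. With 1 TPM added AREG was at 4.51 (Scr) and 4.37 (siPAI-1), and TGFA at 4.2 and 4.85. EREG (epiregulin, a ligand of EGFR and ERBB4) was at 12.8, 10.6, 14.2 and 12.2 TPM in UM-UC-3 and at 0.08, 0.21, 0.02 and 0.02 TPM in RT112. The RT112 values rest on an estimated 6.9 reads or fewer in 3 of the 4 libraries, so the size of the difference depends on the pseudocount: it was -5.64 ± 0.37 with Scr (adjusted p = 0.0010), and -3.47 when 1 TPM in place of 0.1 was added. With siPAI-1 EREG was at -6.79 ± 0.26 (adjusted p = 0.000471), and at -3.80 with 1 TPM added.

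HBEGF, a heparin-binding ligand of EGFR and ERBB4, was the only ligand among the 5 with a level above 10 TPM in both lines. It was at 19.7, 21.9, 24.5 and 22.03 TPM in UM-UC-3 and at 14.7, 15.3, 11.2 and 12.1 TPM in RT112, with no overlap between the lines. It was lower in RT112, with a log2 difference of -0.46 ± 0.10 with Scr (adjusted p = 0.022) and -0.99 ± 0.10 with siPAI-1 (adjusted p = 0.0032). The call with Scr was lost without any 1 of the 4 Scr libraries (adjusted p from 0.0518 to 0.137), and that with siPAI-1 without any 1 of the siPAI-1 libraries other than UM-UC-3 replicate 2 (adjusted p from 0.0523 to 0.0577). BTC (betacellulin, a ligand of EGFR and ERBB4) was barely detected: it was listed at 0, 0.03, 0 and 0 TPM in UM-UC-3 and at 0.26, 0.36, 0.62 and 0.08 TPM in RT112, an estimated 4.9 to 37.9 reads. The difference of 1.84 ± 0.32 with Scr (adjusted p = 0.013) passed, and with siPAI-1, where UM-UC-3 was listed at 0 in both libraries, the adjusted p was 0.114. For BTC both size and call depend on the settings: with Scr the difference was 0.37 with 1 TPM added and 3.98 with 0.01 TPM, and it did not pass without any 1 of the Scr libraries (adjusted p from 0.064 to 0.082). With siPAI-1 BTC passed with 0.01 TPM added (adjusted p = 0.0415), in the fit over all 8 libraries (0.043) and without RT112 replicate 1 (0.016) or replicate 2 (0.012).

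With Scr all 9 genes passed the test, 6 higher and 3 lower in RT112, where 51.6% of 19201 genes did (25.3% higher, 26.3% lower), and the median log2 difference of the 9 was 1.54 against -0.06 over all genes. With siPAI-1, where 52.2% of 19359 genes passed (26.2% higher, 26.1% lower), 7 of the 9 did (4 higher, 3 lower), and EGFR and BTC did not. For all 9 genes the 4 libraries of a line did not overlap with the 4 of the other, as held for 56.0% of 20274 genes. A difference between these lines was thus common among all genes and is no particular property of these 9. The count with Scr rests on 2 libraries a line: it was 5 without UM-UC-3 Scr replicate 1, 6 without UM-UC-3 Scr replicate 2, 4 without RT112 Scr replicate 1 and 2 (EGFR and EREG) without RT112 Scr replicate 2, with every direction kept. The markers of epithelium and of the mesenchymal state differed between the lines as given above, and their part in these differences was not tested.

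**Figure D2:**
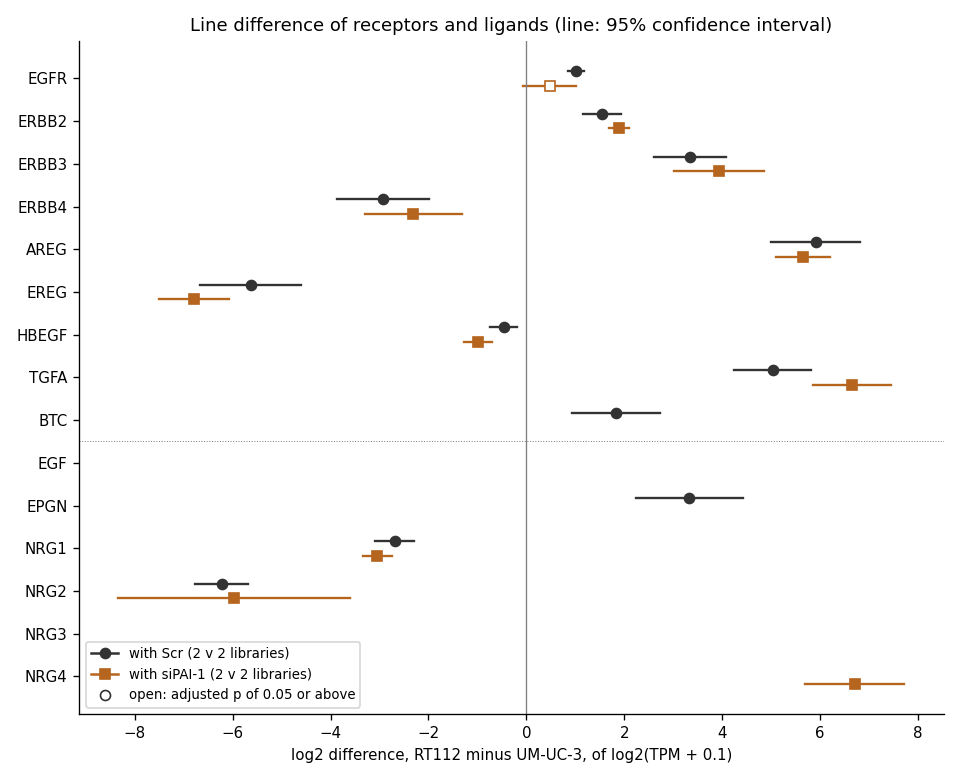
Difference RT112 minus UM-UC-3 on the log2(TPM + 0.1) scale (horizontal axis) with its 95% confidence interval, for the 9 genes (above the dotted line) and the other EGF-family ligands, in the Scr and the siPAI-1 libraries; open symbols did not pass. No value is drawn where a group was listed at 0 in both libraries (EGF and NRG3; NRG4 with Scr; BTC and EPGN with siPAI-1). EGFR with siPAI-1, at 0.48, is the only open symbol.

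The order of levels differed between the lines. In UM-UC-3 with Scr the means ran from EGFR (35.6 ± 0.60 TPM, SD, n = 2) through HBEGF (20.8 ± 1.53), ERBB2 (15.3 and 18.7 in the libraries), EREG (11.7 ± 1.53) and ERBB3 (2.62 ± 0.86) to ERBB4, TGFA, AREG and BTC at 1.195 TPM or less, and ERBB4 and TGFA overlapped. In RT112 with Scr they ran from EGFR (71.9 ± 0.62 TPM) through ERBB2 (49.5 ± 4.85), TGFA (36.3 ± 3.01), AREG (31.9 ± 1.202), ERBB3 (26.9 ± 2.26) and HBEGF (15.0 ± 0.42) to BTC, EREG and ERBB4 at 0.31 TPM or less, and EREG and ERBB4 overlapped.

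EPGN, EREG, AREG and BTC lie in this order on chromosome 4 (RefSeq, GRCh38.p14), at chr4:74308470-74316789, chr4:74365145-74388749, chr4:74445136-74455005 and chr4:74744759-74794523, with BTC on the minus strand and the others on the plus strand. EREG and AREG, which differed between the lines in opposite directions, are 56.4 kb apart, EPGN and EREG 48.4 kb and AREG and BTC 289.8 kb. The 250 bases before the RefSeq start of AREG, EREG and EPGN are printed because these neighbours have opposite patterns (AREG and EPGN in RT112, EREG in UM-UC-3). All are on the plus strand, at chr4:74444886-74445135, chr4:74364895-74365144 and chr4:74308220-74308469. Capitals mark matches, on either strand, to a TATA box (TATAAA), a cyclic AMP response element (CRE, TGACGTCA), an E-box of the type bound by ZEB1 (CACCTG, read as CAGGTG on the other strand), a GC box (GGGCGG or CCGCCC) or an AP-1 site (TGANTCA).
AREG: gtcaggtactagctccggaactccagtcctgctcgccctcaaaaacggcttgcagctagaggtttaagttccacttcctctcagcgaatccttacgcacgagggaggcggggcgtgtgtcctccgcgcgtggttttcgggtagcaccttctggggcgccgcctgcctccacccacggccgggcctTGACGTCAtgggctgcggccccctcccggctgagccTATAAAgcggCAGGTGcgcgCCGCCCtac
EREG: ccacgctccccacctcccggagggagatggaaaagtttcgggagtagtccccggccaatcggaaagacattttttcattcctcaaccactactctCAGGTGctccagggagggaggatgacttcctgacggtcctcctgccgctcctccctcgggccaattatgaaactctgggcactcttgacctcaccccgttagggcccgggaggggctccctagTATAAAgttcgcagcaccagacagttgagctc
EPGN: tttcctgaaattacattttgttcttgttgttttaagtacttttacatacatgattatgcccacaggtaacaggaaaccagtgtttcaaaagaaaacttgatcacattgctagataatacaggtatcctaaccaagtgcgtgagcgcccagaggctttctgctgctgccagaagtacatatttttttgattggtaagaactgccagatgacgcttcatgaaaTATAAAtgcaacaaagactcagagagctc
Each of the 3 has a TATA box 29 (AREG, EPGN) or 32 (EREG) bases before the start, a motif found in 10.7% of the 35116 RefSeq promoter windows of the same length. AREG has a CRE 65 bases before the start, a motif found in 1.65% of windows, and EREG and EPGN have no match to it. The E-box, found in 17.5% of windows, has a match in AREG (19 bases before the start), EREG (155 bases), BTC (193 bases), HBEGF (248 bases) and the second TGFA window (42 bases). The GC box, found in 42.6% of windows, has a match in the first windows of EGFR, ERBB4, AREG, HBEGF and TGFA. AP-1 letters, found in 6.57% of windows, occur in the second EGFR window and in that of ERBB2, and none of the 3 printed windows holds them. A match is a description of letters in the window only.

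The other ligands of the family followed the same split. NRG1, a ligand of ERBB3 and ERBB4, was at 43.1, 45.0, 48.2 and 43.0 TPM in UM-UC-3 and at 7.57, 5.97, 5.22 and 5.64 TPM in RT112. NRG2, a second neuregulin, was at 29.0, 25.6, 23.7 and 27.2 TPM in UM-UC-3 and at 0.28, 0.25, 0.82 and 0.08 TPM in RT112. NRG4, which binds ERBB4, was the reverse: it was listed at 0 in both Scr libraries of UM-UC-3 and at 0.17 and 0.05 TPM with siPAI-1, and was at 15.9, 20.3, 20.5 and 21.4 TPM in RT112. NRG1 was lower in RT112 with Scr (log2 difference -2.69, adjusted p = 0.00074) and with siPAI-1 (-3.04), and NRG2 likewise (-6.23, adjusted p = 0.00033, and -5.97). EPGN (epigen, a ligand of EGFR) was at 1.17, 1.26, 1.10 and 0.59 TPM in RT112 and at 0, 0.07, 0 and 0 TPM in UM-UC-3. NRG3 was at 0.59 to 0.85 TPM in UM-UC-3 and listed at 0 in RT112. EGF was listed at 0 in the 4 UM-UC-3 libraries and reached 0.08 to 0.47 TPM in RT112. With Scr all 6 of these ligands passed the test, 3 in each direction, and with siPAI-1 5 of 6 did (2 higher, 3 lower), EGF being the exception. Of all genes 51.6% passed with Scr and 52.2% with siPAI-1.

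The receptors summed to 56.4 ± 0.73 TPM in UM-UC-3 and 148.4 ± 6.47 TPM in RT112 with Scr (SD, n = 2). EGFR made up 63.1% of that sum in UM-UC-3 and 48.5% in RT112, ERBB2 30.1% and 33.3%, and ERBB3 4.66% and 18.1%. The 11 ligand genes, in contrast, had close sums: 107.4 and 105.1 TPM in the Scr libraries of UM-UC-3, and 109.5 and 110.8 TPM in those of RT112. In UM-UC-3 the sum was made of NRG1 (41.5%), NRG2 (25.7%), HBEGF (19.6%) and EREG (11.01%), and in RT112 of TGFA (33.0%), AREG (28.9%), NRG4 (16.4%), HBEGF (13.7%) and NRG1 (6.15%). NRG1 and NRG2, ligands of ERBB3, led the ligand sum in UM-UC-3, where ERBB3 was at 2.62 TPM, and not in RT112, where ERBB3 was at 26.9 TPM. ERBB4, the other neuregulin receptor, went the other way, with 2.12% of the receptor sum in UM-UC-3 and 0.048% in RT112. TPM are shares of each library's RNA, so the sums compare shares and not amounts per cell.

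**Figure D3:**
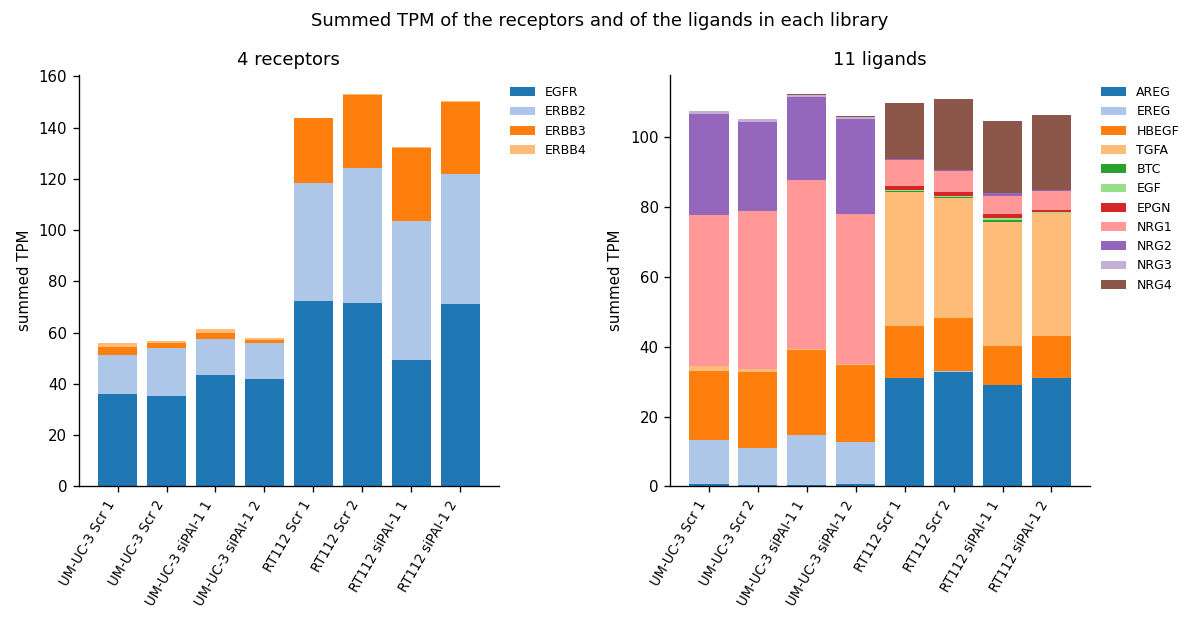
Summed TPM (vertical axis, from 0) of the 4 receptors (left) and of 11 EGF-family ligands (right) in each of the 8 libraries, with a colour for each gene. The receptor bars stand at 55.9 to 61.5 TPM in UM-UC-3 and 132.3 to 152.9 TPM in RT112, while the ligand bars all stand between 104.4 and 112.1 TPM with a different make-up in each line.

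The genes of ligand release also differed between the lines. With Scr all 7 passed (4 higher and 3 lower in RT112, median log2 difference 0.30), and with siPAI-1 4 of 7 did (2 in each direction). The shares over all genes were 51.6% and 52.2%. ADAM10, the main protease for EGF and BTC, was at 154.6 and 154.7 TPM in UM-UC-3 with Scr and at 246.4 and 251.7 TPM in RT112 (log2 difference 0.69, adjusted p = 0.00094). ADAM12, a protease linked to release of HBEGF, was at 28.6 TPM in both Scr libraries of UM-UC-3 and at 1.16 and 0.84 TPM in RT112 (-4.72, adjusted p = 0.0005). RHBDF2 (iRhom2, which brings ADAM17 to the cell surface) was at 6.84 and 4.52 TPM in UM-UC-3 and at 34.1 and 32.6 TPM in RT112 (2.56, adjusted p = 0.0020).

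Among the adaptors and effectors next to the receptors, 11 of 18 passed with Scr (3 higher, 8 lower, median -0.20) and 12 of 18 with siPAI-1 (4 higher, 8 lower). Over all genes 51.6% and 52.2% did, so a line difference was common outside this list too. GRB7, an adaptor that binds ERBB2 and ERBB3 and whose gene lies 9.3 kb from ERBB2, was listed at 0 and 0.34 TPM in UM-UC-3 with Scr and was at 14.7 and 16.5 TPM in RT112 (log2 difference 6.22, adjusted p = 0.0051). The adaptor CRK was lower in RT112 (42.5 and 45.1 against 107.2 and 101.3 TPM, -1.25, adjusted p = 0.00072), as was PLCG1, a phospholipase recruited by EGFR (33.8 and 36.1 against 75.0 and 70.4 TPM, -1.05, adjusted p = 0.0011). PTPN11 (SHP2, a phosphatase needed for RAS signalling) was also lower with Scr (91.3 and 86.5 against 131.5 and 131.2 TPM, -0.56, adjusted p = 0.0025). NRAS was lower in RT112 in both sets, with a ratio of the means of 0.537 with Scr and 0.476 with siPAI-1. Its log2 difference with siPAI-1 was -1.07 (adjusted p = 0.00085). SHC1, the most abundant of the list, was at 163.4 to 178.7 TPM in the Scr libraries and did not pass (log2 difference 0.05, adjusted p = 0.53).

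Of the receptor inhibitors and ubiquitin ligases, 6 of 10 passed in either set of libraries, 2 higher and 4 lower in RT112 (median -0.28 with Scr). Beside this stand 51.6% of all genes with Scr and 52.2% with siPAI-1. ERRFI1 (MIG6, which binds and blocks the EGFR kinase) was at 231.3, 218.1, 217.0 and 224.2 TPM in UM-UC-3 and at 15.4, 12.1, 12.4 and 13.1 TPM in RT112 (log2 difference with Scr -4.03, adjusted p = 0.00037). LRIG1, a membrane protein that promotes loss of ERBB receptors, was at 6.73 and 6.58 TPM in UM-UC-3 and at 0.63 and 0.67 TPM in RT112 with Scr (-3.17, adjusted p = 0.0010). CBLC, an epithelial relative of the ubiquitin ligase CBL, was at 0, 0.06, 0.03 and 0 TPM in UM-UC-3 and at 33.6, 31.9, 29.7 and 31.1 TPM in RT112 (8.02, adjusted p = 0.00047). CBL itself was lower in RT112 in both sets, with a ratio of the means of 0.463 with Scr and 0.476 with siPAI-1. Its log2 difference with siPAI-1 was -1.06 (adjusted p = 0.0046).

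Genes that ERK signalling induces differed in both directions: 10 of 14 passed with Scr (3 higher and 7 lower in RT112, median -0.52) and 12 of 14 with siPAI-1 (3 higher, 9 lower). The shares over all genes were 51.6% with Scr and 52.2% with siPAI-1. DUSP6, an ERK phosphatase, was at 112.3 and 107.7 TPM in RT112 and 26.0 and 20.1 TPM in UM-UC-3 with Scr (log2 difference 2.26, adjusted p = 0.00096). The ETS factor ETV4 was higher in RT112 in both sets, with a ratio of the means of 3.79 with Scr and 4.23 with siPAI-1. Its log2 difference with siPAI-1 was 2.07 (adjusted p = 0.00053). FOSL1, an AP-1 subunit, was at 304.8 and 300.5 TPM in UM-UC-3, against 74.7 and 67.6 TPM in RT112, with Scr (-2.09, adjusted p = 0.00034), and SPRED2, an inhibitor of RAS signalling, was lower in RT112 as well (-1.12, adjusted p = 0.0010).

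Among the genomic neighbours of ERBB2 on chromosome 17, 3 of 7 passed with Scr and 4 of 7 with siPAI-1, in each case higher in RT112. Over all genes 51.6% passed with Scr and 52.2% with siPAI-1. Of all genes tested, 25.3% and 26.2% passed and were higher in RT112. Beside GRB7, PGAP3 was higher with Scr (9.05 and 8.17 against 5.15 and 4.21 TPM, log2 difference 0.87, adjusted p = 0.018) and IKZF3 passed against a group listed at 0 (0.12 and 0.11 TPM in RT112). STARD3 (0.44, adjusted p = 0.14), MIEN1 (0.48, adjusted p = 0.059), TCAP (0.98, adjusted p = 0.12) and PNMT (0.25 TPM at most) did not pass with Scr, and STARD3 (0.30) and MIEN1 (0.66) passed with siPAI-1. ERBB2 and MIEN1 overlap at their ends on opposite strands, and whether the counting used strand is not given in the sources used here. Of the neighbours of EGFR on chromosome 7, LANCL2 (-0.32, adjusted p = 0.042) was lower and VOPP1 (0.19, adjusted p = 0.046) higher in RT112 with Scr, VSTM2A was listed at 0 in RT112 against at most 0.53 TPM, and SEC61G was at 184.6 to 208.3 TPM in the Scr libraries (-0.12, adjusted p = 0.15).

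**Figure D4:**
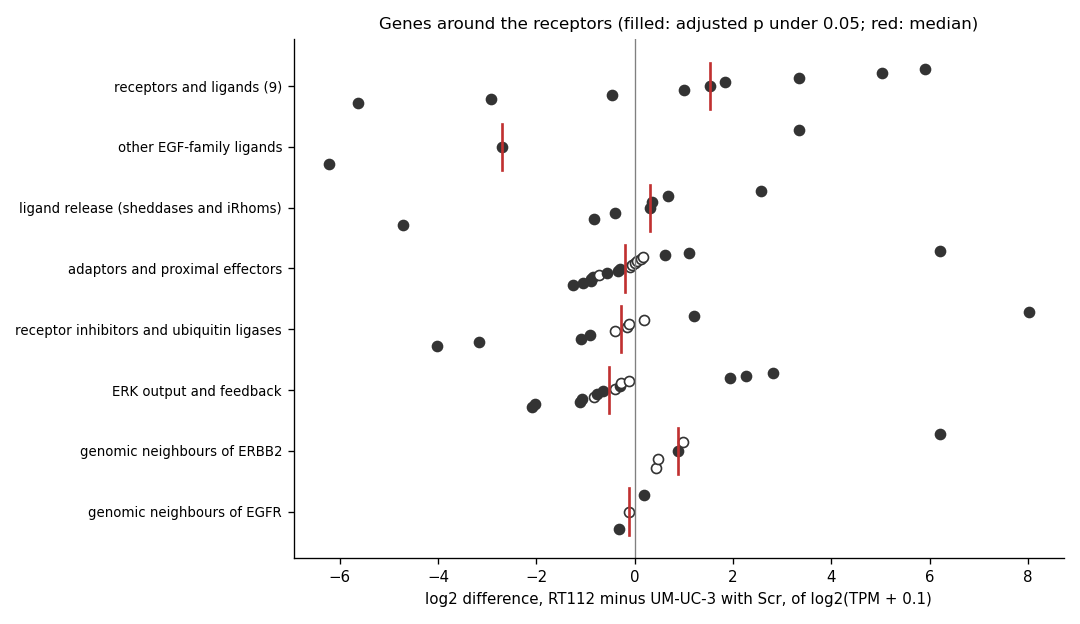
Difference RT112 minus UM-UC-3 with Scr on the log2(TPM + 0.1) scale (horizontal axis) for each gene (point) of the 9 receptors and ligands and of 7 related lists (rows); filled points passed, red bars are medians, and genes with a group listed at 0 are left out. The 9 genes spread from -5.64 to 5.92, and CBLC at 8.02 is the point farthest to the right.

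With siPAI-1 none of the 9 genes passed against Scr in UM-UC-3, as for all 18528 genes tested (0.0% called; limma, 1114 genes at an unadjusted p under 0.05, 6.01%). EGFR was at 43.4 and 41.95 TPM with siPAI-1 and at 36.0 and 35.1 TPM with Scr, a mean of 120% of Scr, without overlap (log2 difference 0.26, 95% confidence interval 0.09 to 0.44, adjusted p = 0.791). TGFA was at 0.34 and 0.18 TPM against 1.31 and 0.77 TPM, also without overlap and with an estimated 15.8 to 31.8 reads against 70.6 to 109.9 (log2 difference -1.66, interval -2.94 to -0.38, adjusted p = 0.791). With 1 TPM added the TGFA difference was -0.69. HBEGF was above Scr (24.5 and 22.03 against 19.7 and 21.9 TPM) and ERBB2 below it (14.15 and 13.8 against 15.3 and 18.7 TPM) by small margins. The intervals of HBEGF (-0.11 to 0.43) and ERBB2 (-0.61 to 0.07) include 0. These 4 genes of 9 did not overlap between the groups, where 32.2% of genes did not. ERBB3 (interval -1.64 to 0.62), ERBB4 (-1.07 to 1.02), AREG (-1.08 to 1.42) and EREG (-0.22 to 0.57) overlapped and their intervals include 0. BTC was listed at 0 in both siPAI-1 libraries.

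None of the 9 genes passed in RT112 either, as for all 18437 genes tested (0.0% called; limma, 1063 genes at an unadjusted p under 0.05, 5.77%). HBEGF was at 11.2 and 12.1 TPM with siPAI-1 against 14.7 and 15.3 TPM with Scr, a mean of 77.4% of Scr and without overlap (log2 difference -0.37, interval -0.67 to -0.06, adjusted p = 0.838). EGFR was at 49.45 and 71.3 TPM against 72.3 and 71.4 TPM (log2 difference -0.27, interval -0.76 to 0.21). Its difference rests on 1 library: it was -0.01 without RT112 siPAI-1 replicate 1 and -0.54 without replicate 2, and the marker differences of replicate 1 are given above. EREG was at 0.02 TPM in both siPAI-1 libraries and at 0.08 and 0.21 TPM with Scr, all resting on few reads as given above. ERBB2, ERBB3, AREG and TGFA had the narrowest intervals: ERBB2 between -0.17 and 0.33, ERBB3 between -0.17 and 0.34, AREG between -0.31 and 0.13 and TGFA between -0.27 and 0.20 on the log2 scale. Of the 9 genes, 5 did not overlap (ERBB4 above Scr, and AREG, EREG, HBEGF and EGFR below), where 32.7% of genes did not. For AREG (29.07 and 30.88 against 31.0 and 32.7 TPM) and EGFR the nearest libraries were close. ERBB4 and EREG were at 0.21 TPM at most. Among the 7 related pathway and neighbour lists no gene passed in either line, and their medians lay between -0.10 and 0.16. No marker gene passed either. The basal markers had a median of 0.58 in UM-UC-3 (4 of 4 positive, at most 2.74 TPM in sum) and -0.24 in RT112 (4 of 4 negative). The luminal markers had 0.44 (4 of 6 positive) and 0.22 (7 of 7 positive, 0.16 without UPK3A). Over all genes 48.7% and 52.9% were positive, and no basal or luminal marker had an unadjusted limma p under 0.05. The medians in UM-UC-3 and RT112 were 0.13 and -0.05 for epithelium, 0.06 and -0.26 for the mesenchymal state, 0.31 and 0.22 for fibroblasts and -0.84 and 0.73 for endothelium, the last over 2 and 3 genes that sum to at most 2.35 TPM. The part of these markers in the values of the 9 genes was not tested.

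The difference between the siPAI-1 effects of the 2 lines was tested across all 8 libraries and no gene passed (0.0% of 20274; limma, 1370 at an unadjusted p under 0.05, 6.76%). HBEGF, above Scr in UM-UC-3 and below it in RT112, had an effect lower in RT112 by 0.53 (difference -0.53, interval -0.87 to -0.18, adjusted p = 0.632). TGFA, below Scr in UM-UC-3 and near it in RT112, had a difference of 1.62 (interval 0.58 to 2.65, adjusted p = 0.632), and of 0.65 with 1 TPM added. For EGFR the difference was -0.54 (adjusted p = 0.730), and it was -0.80 without RT112 siPAI-1 replicate 2 (adjusted p = 0.034) and -0.27 without replicate 1 (adjusted p = 0.341). The intervals of the other 6 genes include 0.

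**Figure D5:**
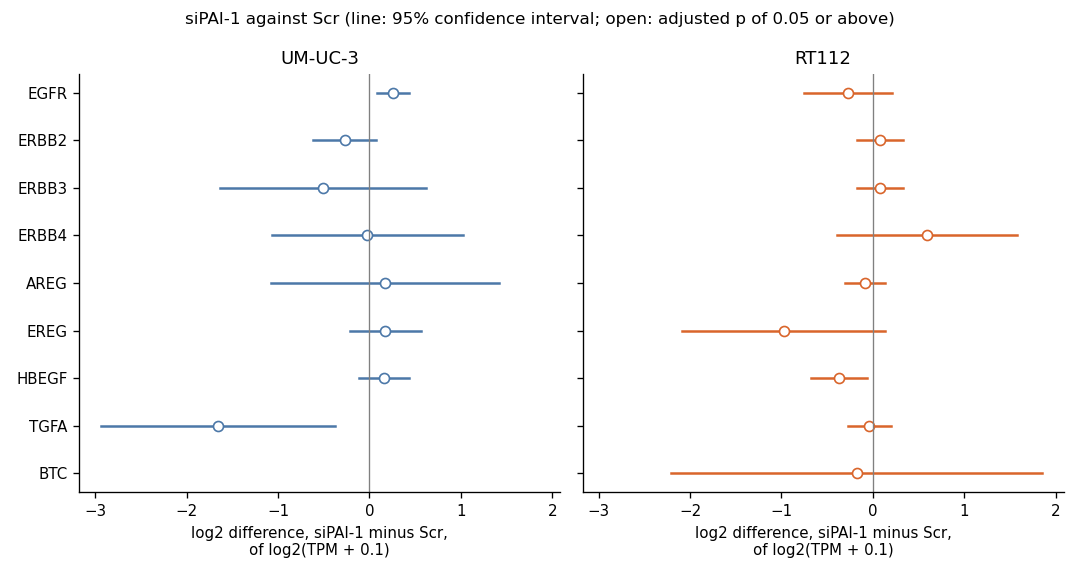
Difference siPAI-1 minus Scr on the log2(TPM + 0.1) scale (horizontal axis) with its 95% confidence interval, for the 9 genes, in UM-UC-3 (left) and RT112 (right), 2 against 2 libraries. All points are open, meaning an adjusted p of 0.05 or above; TGFA in UM-UC-3 lies farthest from 0, at -1.66, and BTC is not drawn in UM-UC-3, where it was listed at 0 in both siPAI-1 libraries.

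For members with a mean of at least 1 TPM, the 2 genes with the most similar log2(TPM + 0.1) profile over the 8 libraries were sought among 12802 genes. Most members follow the line, and 2422 to 2946 of the genes compared reached a Pearson r of 0.95 with AREG, TGFA, EREG, ERBB2 or ERBB3, so the nearest genes stand for that pattern: TTF2 and RASEF for ERBB2, PSMD3 and RP11-273G15.2 for ERBB3, FGD4 and PPP1R14C for AREG, SKIV2L2 and FIBCD1 for EREG, and THOC3 and FBXO27 for TGFA, all with r of at least 0.998. EGFR and HBEGF had fewer close profiles (0.719% and 2.23% of genes at 0.95), led by CAST (r = 0.988) and SLC25A32 (0.986) for EGFR and by AP3M2 (0.995) and DYNC1H1 (0.988) for HBEGF. The 8 points share 2 lines and 4 groups and are not independent, so these r values are descriptions.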

How the data were processed

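RNA of 8 libraries (2 lines, 2 siRNA pools, 2 libraries a group) was sequenced as single-end reads from a stranded mRNA kit. The submitters' processing notes name STAR 2.5.0, RSEM 1.2.25 and GRCh38, and the study's methods name STAR, featureCounts and DESeq2. The authors deposited TPM and FPKM values for each gene and library (27475 human entries and 92 spike-in entries, the latter at 0 throughout), and no counts were used here. Library depth was estimated from the steps between low FPKM values (29300000 to 34200000 reads, with 72.5% to 77.7% of the values tried within 0.1 of a whole read). Reads of a gene were then estimated with the length of its longest annotated transcript, which can overstate them where shorter transcripts are expressed. Estimated reads are therefore approximate, and counting error is only part of the error.

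The tests of the study's methods need counts, so log2(TPM + 0.1) was compared with limma 3.58.1 in R 4.3.3 (empirical Bayes with a trend, two-sided), with Benjamini-Hochberg adjustment over all genes above 0 in at least 1 library compared and a threshold of 0.05. Each comparison used its own 4 libraries, and the difference of siPAI-1 effects used all 8. Fold changes on this scale understate the change of low genes. The fit was tested on simulated data. The spread between the simulated libraries was set and not taken from these libraries, so power here was not measured. Alternatives were pseudocounts of 1 and 0.01, FPKM, median-ratio rescaling, a mean of at least 1 TPM, no trend, a replicate block, 1 fit over all libraries and leaving out each library.

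The gene that the siRNA pool targets is not reported here. All 9 genes were named in every comparison. Of each related list, up to 3 genes that passed with the smallest p and the gene with the highest mean TPM were to be named, with EGF, NRG1 and the genomic neighbours. Where no gene passed (siPAI-1 against Scr), lists are given by counts and medians only, a departure from that rule. PIK3R2 and PIK3R3 have more than 1 entry and were left out. Members and lists were chosen with earlier results of these data known. Promoter windows and positions are from RefSeq (GRCh38.p14), and 8 of the 9 genes have a window, ERBB3 being the exception. The tools were Python 3.11.15, numpy 2.4.6, pandas 2.3.3 and matplotlib 3.10.9.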

Additional observations from a re-analysis of the deposited data

Results flagged for a closer look

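EGFR, HBEGF and TGFA are listed because the siPAI-1 effect differed between the lines at an unadjusted limma p under 0.05, although none passed after Benjamini-Hochberg adjustment over all genes. EGFR had a difference of -0.54 (adjusted p = 0.730), its siPAI-1 effect being 0.26 in UM-UC-3 and -0.27 in RT112. Without RT112 siPAI-1 replicate 1 the EGFR effect in RT112 was -0.01 and the difference -0.27. HBEGF had a difference of -0.53 (adjusted p = 0.632), the effects being 0.16 and -0.37. TGFA had a difference of 1.62 (adjusted p = 0.632), the effects being -1.66 and -0.04, with at most 1.31 TPM in any UM-UC-3 library. With a pseudocount of 1 in place of 0.1 the TGFA difference was 0.65 and its effect in UM-UC-3 was -0.69. Of all 20274 genes, 6.76% had an unadjusted p under 0.05 in this comparison.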

How the results depend on the processing

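All directions of the 9 genes between the lines were kept under every alternative run. Leaving out 1 library moved the counts: with Scr, 2 to 6 of the 9 genes and 5698 to 6564 genes overall passed, and with siPAI-1 5 to 7 of the 9 and 5294 to 7142 overall; fewer libraries leave a lone library that is assumed to vary like the others. The mean of at least 1 TPM gave 1 called gene, none of the 9, for siPAI-1 in UM-UC-3, the fit over all 8 libraries gave 2 in RT112, and the fit without a trend gave 7 for the difference of effects, where leaving out 1 library gave 0 to 123 genes and 0 to 1 of the 9 (EGFR, without RT112 siPAI-1 replicate 2); the cause was not tested. Differences near 0 changed sign without 1 library: SHC1 between the lines with Scr (-0.0095 to 0.11); in UM-UC-3 with siPAI-1 ERBB4 (-0.32 to 0.27) and AREG (-0.23 to 0.58); in RT112 ERBB2 (-0.020 to 0.18), ERBB3 (-0.0021 to 0.17), TGFA (-0.12 to 0.045) and BTC (-1.18 to 0.82, and 0.015 with a pseudocount of 1); for the difference of effects AREG (-0.66 to 0.14) and BTC (-0.99 to 1.01).

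Same-numbered libraries did not deviate together (correlations from -0.043 to 0.098), so the numbers were not taken to pair samples. With a replicate block 9 and 7 of the 9 genes passed between the lines and 0 in each siPAI-1 comparison, with 9387 and 9365 genes overall. Values under an estimated 50 reads (BTC, ERBB4 and EREG in RT112, AREG in UM-UC-3, TGFA in UM-UC-3 with siPAI-1) limit the precision of those differences.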

Other observations

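RT112 siPAI-1 replicate 1 was above replicate 2 in several low genes of the pathway: EGF was at 0.47 against 0.09 TPM, BTC at 0.62 against 0.08 TPM, NRG2 at 0.82 against 0.08 TPM and LRIG1 at 2.73 against 0.71 TPM. Its EGFR level was 49.45 against 71.3 TPM. The ratio of ERBB2 to EGFR in TPM was 1.09 in that library and 0.638 to 0.741 in the other RT112 libraries, against 0.326 to 0.532 in UM-UC-3. Between the libraries of this group 5.07% of the genes that averaged 10 TPM or more differed by more than 0.5 on the log2 scale, against 3.5% to 4.47% in the other groups. By the SD of the log2 difference between libraries this group (0.258) did not stand apart, as UM-UC-3 with Scr had 0.302 and the other groups 0.225 and 0.255.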
